A study of Mus musculus with 12 samples.

Results

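The 37 genes encoded by mouse mitochondrial DNA were followed in the left ventricle after myocardial infarction (MI), with and without a viral vector for Irx3, a homeobox transcription factor. They are the rows of the gene count table whose symbol starts with mt-, 37 of 56748 rows. They comprise 13 protein genes, 2 ribosomal RNA (rRNA) genes and 22 transfer RNA (tRNA) genes. The table holds read counts from polyadenylated RNA of 12 left ventricles of C57BL/6J mice labelled as wild type, 4 in each of 3 groups. Sham hearts came from mice that received AAV9 control vector through the tail vein and then a sham operation. MI hearts came from mice that received the same AAV9 control vector and then ligation of the left anterior descending artery. Irx3 MI hearts came from mice that received AAV9-Irx3 vector and the same ligation. Every mouse thus carried an AAV9 vector, and all tissue was collected 14 days after surgery. No group joined the Irx3 vector with sham surgery, so the vectors were compared only after MI. Neither the promoter of the vector nor the zone of the ventricle sampled (scar, border or remote muscle) is given in the sources used here. The labels name cardiomyocytes as the cell type and the left ventricle as the source, and the marker levels given further on include those of other cell types.

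Mitochondrial DNA is a small circle that is read from both strands into long precursor RNAs. The heavy-strand precursor carries both rRNAs, 12 of the 13 protein genes and 14 tRNAs, and the light-strand precursor carries mt-Nd6 and 8 tRNAs. Below, mRNA stands for the annotated row of a protein gene, and overlapping genes can share an RNA. The tRNAs lie between the other genes, and cutting them out of the precursor frees the mRNAs and rRNAs. The 13 proteins are core subunits of complexes I, III, IV and V of oxidative phosphorylation, the main source of ATP in heart muscle, and the other subunits are encoded in the nucleus. Most mitochondrial mRNAs receive a short poly(A) tail, the human ND6 mRNA is known to lack a stable one, and mature tRNAs end in an added CCA. The libraries were made from RNA bound to oligo(dT) beads, so every level below is a level of captured RNA and need not follow the amount of that RNA in the tissue.

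All 37 symbols matched a transcript of GENCODE M21 (GRCm38). The deposited counts refer to GRCm39, so that annotation served for names, order, lengths and sequences on the mitochondrial chromosome and no coordinates are given. The sequences printed here are those on which the results turn. They are the light-strand mRNA, the shortest mRNA, tRNAs that were near 0 outside the Irx3 MI hearts, tRNAs counted in every group, and the pair with no count in any library. Of mt-Nd6 the 3' part, bases 280 to 519, is shown with the last codon in capitals, and mt-Atp8 is shown whole with its first and last codon in capitals.
mt-Nd6, NADH dehydrogenase subunit 6 of complex I, length 519 bases: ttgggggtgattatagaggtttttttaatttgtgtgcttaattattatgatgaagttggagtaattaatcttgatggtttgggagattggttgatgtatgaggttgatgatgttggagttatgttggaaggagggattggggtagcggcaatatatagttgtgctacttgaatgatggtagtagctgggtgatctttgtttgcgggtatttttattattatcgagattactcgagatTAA
mt-Atp8, a small subunit of the membrane part of ATP synthase, length 204 bases: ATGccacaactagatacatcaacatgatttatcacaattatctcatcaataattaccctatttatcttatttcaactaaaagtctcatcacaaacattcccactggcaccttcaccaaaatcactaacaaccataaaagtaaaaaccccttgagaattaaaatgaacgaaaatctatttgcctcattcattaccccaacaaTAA
The base composition of these 2 mRNAs differs with the strand. The mt-Nd6 mRNA holds 28.1% G and 5.97% C, whereas mt-Atp8 holds 5.88% G and the 12 heavy-strand mRNAs together range from 5.88% to 16.1% G. The longest run of A in the mt-Nd6 mRNA is 3 bases, against 8 in mt-Nd2.

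In the tRNAs, written as DNA and without the CCA end, the capitals mark the anticodon. The first 4 had 0 to 2 counts in any library outside the Irx3 MI group.
mt-Te, tRNA-Glu, light strand: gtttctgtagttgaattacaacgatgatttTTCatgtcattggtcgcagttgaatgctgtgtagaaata
mt-Tl1, a tRNA-Leu, heavy strand: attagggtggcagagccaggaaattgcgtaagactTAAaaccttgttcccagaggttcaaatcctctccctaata
mt-Ti, tRNA-Ile, heavy strand: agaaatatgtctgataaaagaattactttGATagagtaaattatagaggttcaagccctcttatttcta
mt-Tg, tRNA-Gly, heavy strand: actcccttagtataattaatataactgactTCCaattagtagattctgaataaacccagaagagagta
The next 4 are light-strand tRNAs with counts in all 3 groups.
mt-Tp, tRNA-Pro: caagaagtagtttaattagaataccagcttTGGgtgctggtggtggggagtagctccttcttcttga
mt-Tc, tRNA-Cys: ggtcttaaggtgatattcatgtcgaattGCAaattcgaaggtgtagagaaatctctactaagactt
mt-Ty, tRNA-Tyr: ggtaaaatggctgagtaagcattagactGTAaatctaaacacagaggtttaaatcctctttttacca
mt-Tn, tRNA-Asn: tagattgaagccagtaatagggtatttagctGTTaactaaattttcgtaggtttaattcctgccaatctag
The last pair, both from the heavy strand, had 0 counts in all 12 libraries.
mt-Tf, tRNA-Phe: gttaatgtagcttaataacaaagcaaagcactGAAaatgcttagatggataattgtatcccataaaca
mt-Td, tRNA-Asp: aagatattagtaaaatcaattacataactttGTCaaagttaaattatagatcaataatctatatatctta

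Total counts ranged from 13352604 to 19236721 per library, and all libraries carry the label batch 1. Irx3 itself had 295 to 593 counts in the 8 libraries with control vector and 5232 to 10723 in the 4 with Irx3 vector (log2 fold change 4.09, SE 0.26, adjusted p = 1.48e-06 against MI hearts). Adjusted p-values are from edgeR's quasi-likelihood test over the 15742 genes that passed the filter on low counts, and a gene was called when its adjusted p was under 0.05. They measure the spread between the 4 libraries of a group, taken as separate mice. Levels are CPM, read counts scaled to the depth of the library after TMM correction, and the 4 values of a group are given in the order of replicates 1 to 4. In all, 31 of the 37 genes were tested. The 6 that did not pass the filter were the tRNA genes mt-Tf, mt-Tv, mt-Ts1, mt-Td, mt-Tk and mt-Tt. Since a tRNA gene could pass through high counts in the Irx3 MI group alone, counts of calls are led by the 15 rRNA and mRNA genes, all of which were tested. The comparison of MI with sham hearts and that of Irx3 MI with MI hearts use the same 4 MI libraries. Their values are therefore set side by side only.

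Mitochondrial transcripts took a smaller share of all counts in 3 of the 4 MI hearts than in any sham heart, and a larger share in every Irx3 MI heart than in any other heart. In sham hearts the 37 genes held 8.22%, 5.001%, 4.50% and 6.88% of all counts. MI hearts had 2.06%, 5.64%, 2.25% and 0.926%, and Irx3 MI hearts had 10.45%, 12.64%, 12.68% and 19.01%. Replicate 2 of the MI group lay within the sham range, and the ranges of the Irx3 MI group and of either other group did not overlap. The 12 heavy-strand mRNAs made up 94.9% to 98.6% of the mitochondrial counts in every library. In tissue RNA, fewer cells of a type and less RNA per cell cannot be told apart.

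The smaller classes were set against the heavy-strand mRNAs of the same library. Per 1000 heavy-strand mRNA counts, mt-Nd6 had 3.56, 2.39, 2.43 and 2.87 counts in sham hearts, 2.65, 4.23, 2.96 and 2.49 in MI hearts, and 27.3, 25.5, 30.2 and 27.03 in Irx3 MI hearts. The light-strand mRNA thus kept a similar ratio in both control vector groups and stood apart in all 4 Irx3 MI hearts. Both rRNAs together had 23.7, 27.04, 27.98 and 25.5 counts per 1000 in sham hearts, 13.9, 15.4, 16.2 and 11.7 in MI hearts, and 15.2, 19.7, 20.4 and 20.8 in Irx3 MI hearts. Every sham heart lay above every other heart in this ratio, and replicate 1 of the Irx3 MI group lay within the MI range. The pooled ratio mainly shows mt-Rnr2, which had 90405 counts in sham and 122203 in Irx3 MI hearts, against 13656 and 37877 for mt-Rnr1. The 22 tRNAs together had 0.498, 0.151, 0.125 and 0.501 counts per 1000 in sham hearts, 0.129, 0.616, 0.285 and 0.0355 in MI hearts, and 2.53, 3.18, 3.27 and 2.69 in Irx3 MI hearts. The tRNA ratios of both control vector groups overlapped, and those of the Irx3 MI group were above all of them.

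**Figure D1:**
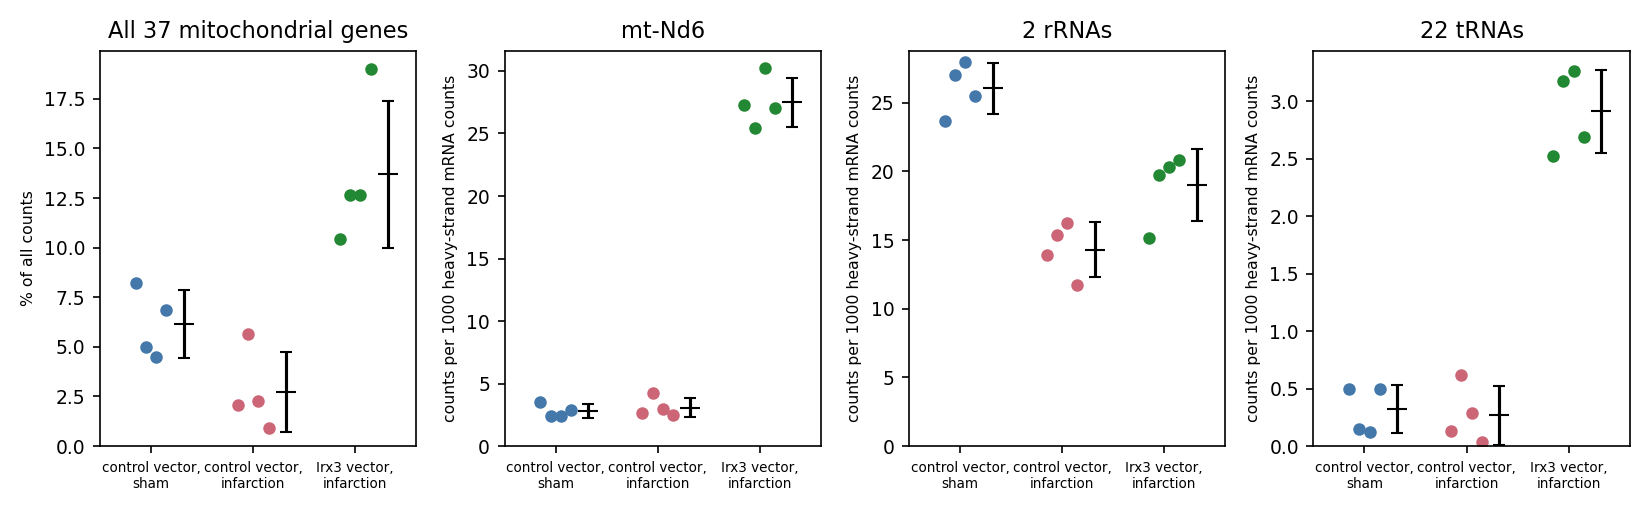
Each point is a library, in 3 groups of 4, and the bar beside each group is the mean ± SD. The left panel shows the share of all counts on the 37 mitochondrial genes (percent), which is 10.45% to 19.01% in Irx3 MI hearts. The other panels show mt-Nd6, both rRNAs together and the 22 tRNAs per 1000 heavy-strand mRNA counts. There mt-Nd6 and the tRNAs stand apart in the Irx3 MI group. The pooled rRNA ratio, mostly counts of mt-Rnr2, is highest in sham hearts.

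The rRNAs of the mitochondrial ribosome, mt-Rnr1 (12S) and mt-Rnr2 (16S), were both lower in MI than in sham hearts and both higher in Irx3 MI than in MI hearts. Normalised counts of mt-Rnr1 were 337, 171, 149 and 274 CPM in sham hearts, 26.3, 146, 44.98 and 8.89 in MI hearts, and 294, 483, 495 and 967 in Irx3 MI hearts. For mt-Rnr2 they were 1788, 1350, 1314 and 1682 in sham hearts, 246, 687, 296 and 93.5 in MI hearts, and 951, 1706, 1620 and 2856 in Irx3 MI hearts. Each MI heart was below each sham heart for both rRNAs, with MI replicate 2 closest to sham. The log2 fold change from sham to MI hearts was -2.04 for mt-Rnr1 (SE 0.65, adjusted p = 0.0193) and -2.21 for mt-Rnr2 (SE 0.49, adjusted p = 0.00238). From MI to Irx3 MI hearts it was 3.31 for mt-Rnr1 (SE 0.68, adjusted p = 0.0016) and 2.43 for mt-Rnr2 (SE 0.49, adjusted p = 0.00137). Irx3 MI hearts overlapped the sham range for both rRNAs and were not called against it, with differences of 1.27 for mt-Rnr1 (SE 0.63, adjusted p = 0.097) and 0.22 for mt-Rnr2 (SE 0.47, adjusted p = 0.699).

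Complex I, the NADH dehydrogenase that starts the respiratory chain, takes 7 of its subunits from mitochondrial DNA. Its long heavy-strand mRNAs are mt-Nd1, mt-Nd2, mt-Nd4 and mt-Nd5. In sham hearts mt-Nd4 stood at 6746, 5176, 5054 and 5900 CPM, in MI hearts at 2106, 3940, 1535 and 1228, and in Irx3 MI hearts at 7824, 10990, 10290 and 16590. The values of mt-Nd5 were 10960, 7257, 6790 and 9159 CPM in sham hearts, 2366, 6373, 1944 and 1068 in MI hearts, and 11480, 16070, 15110 and 22740 in Irx3 MI hearts. For both genes all 4 MI hearts lay below all sham hearts and all 4 Irx3 MI hearts lay above them. The mt-Nd4 mRNA fell in MI hearts by 1.38 on the log2 scale (SE 0.36, adjusted p = 0.00668), and mt-Nd5 fell by 1.54 (SE 0.46, adjusted p = 0.0141). Against MI hearts, Irx3 MI hearts were higher by 2.38 for mt-Nd4 (SE 0.37, adjusted p = 0.000267) and by 2.48 for mt-Nd5 (SE 0.48, adjusted p = 0.000997). Against sham hearts mt-Nd4 was called higher at 1.00 (SE 0.36, adjusted p = 0.0258), and mt-Nd5 was not called at 0.94 (SE 0.45, adjusted p = 0.0873) although the ranges did not overlap. The mt-Nd4 call was lost without Irx3 MI replicate 4 (0.76, adjusted p = 0.0792) or without sham replicate 2, 3 or 4, and under the correction for GC content described further on mt-Nd4 was at -0.28 (adjusted p = 0.421).

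The other long complex I mRNAs varied more among libraries. Sham hearts had 5889, 3037, 2660 and 4527 CPM of mt-Nd1, MI hearts 909, 3731, 1362 and 336, and Irx3 MI hearts 8173, 9795, 9238 and 19660. Of mt-Nd2, sham hearts had 4010, 1878, 1545 and 3065 CPM, MI hearts 475, 2454, 791 and 150, and Irx3 MI hearts 6902, 8923, 8409 and 17090. MI replicate 2 lay inside the sham range for both genes and the other 3 MI hearts lay below it. Neither gene was called in MI against sham hearts, at -1.35 for mt-Nd1 (SE 0.58, adjusted p = 0.069) and -1.44 for mt-Nd2 (SE 0.65, adjusted p = 0.081). Both were higher in Irx3 MI than in MI hearts, by 2.89 for mt-Nd1 (SE 0.61, adjusted p = 0.00183) and 3.42 for mt-Nd2 (SE 0.70, adjusted p = 0.00147). All Irx3 MI hearts were also above all sham hearts, with mt-Nd1 higher by 1.54 (SE 0.58, adjusted p = 0.033) and mt-Nd2 by 1.98 (SE 0.66, adjusted p = 0.0182). Both of these calls were lost without Irx3 MI replicate 4 (adjusted p = 0.0997 for mt-Nd1 and 0.052 for mt-Nd2) and with the GC correction (0.41 for mt-Nd1 and 0.74 for mt-Nd2).

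Short mRNAs of complex I showed the largest differences between Irx3 MI and MI hearts among the heavy-strand mRNAs. The mt-Nd3 mRNA of 348 bases had 19.2, 5.40, 4.10 and 9.32 CPM in sham hearts, 0.720, 8.66, 2.79 and 0.517 in MI hearts, and 86.2, 94.2, 135 and 174 in Irx3 MI hearts. The mt-Nd4l gene of 297 bases, which overlaps the start of mt-Nd4, had 89.5, 44.2, 11.1 and 44.4 CPM in sham hearts, 6.38, 21.2, 1.37 and 0.672 in MI hearts, and 197, 263, 411 and 445 in Irx3 MI hearts. All Irx3 MI hearts were above all other hearts for both genes, while MI replicate 2 overlapped the sham range. The rise over MI hearts was 5.30 on the log2 scale for mt-Nd3 (SE 0.75, adjusted p = 0.000142) and 5.49 for mt-Nd4l (SE 0.91, adjusted p = 0.000398). Against sham hearts it was 3.69 for mt-Nd3 (SE 0.68, adjusted p = 0.000437) and 2.80 for mt-Nd4l (SE 0.80, adjusted p = 0.008). From sham to MI hearts mt-Nd4l fell by 2.69 (SE 0.82, adjusted p = 0.0155), and mt-Nd3 was not called at -1.61 (SE 0.69, adjusted p = 0.0691).

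Complex III has 1 mitochondrial subunit, the cytochrome b of mt-Cytb. Its mRNA stood at 16770, 11230, 10460 and 14190 CPM in sham hearts, 4319, 9644, 4245 and 2196 in MI hearts, and 12990, 18220, 16710 and 27150 in Irx3 MI hearts. MI hearts were all below sham hearts, and Irx3 MI replicates 1 and 3 were within the sham range. The mRNA fell by 1.37 in MI hearts (SE 0.41, adjusted p = 0.0142) and was 1.88 higher in Irx3 MI than in MI hearts (SE 0.42, adjusted p = 0.00245). The difference between Irx3 MI and sham hearts was 0.51 (SE 0.40, adjusted p = 0.283).

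Complex IV, cytochrome c oxidase, takes its 3 catalytic core subunits from mt-Co1, mt-Co2 and mt-Co3. The most abundant mitochondrial mRNA was mt-Co1, with 42110, 26110, 23980 and 37240 CPM in sham hearts, 9113, 26570, 10830 and 3704 in MI hearts, and 31700, 43370, 40190 and 70670 in Irx3 MI hearts. MI replicate 2 fell inside the sham range and below all Irx3 MI hearts. Sham hearts had 1148, 492, 578 and 1254 CPM of mt-Co2, MI hearts 64.8, 488, 151 and 30.3, and Irx3 MI hearts 879, 826, 1182 and 3053. For mt-Co3 the levels were 1524, 946, 1049 and 1109 CPM in sham hearts, 126, 724, 122 and 27.9 in MI hearts, and 915, 1156, 1111 and 3469 in Irx3 MI hearts. MI hearts were all below sham hearts for mt-Co2 and mt-Co3, and Irx3 MI hearts overlapped the sham range for all 3 genes. MI hearts were lower by 1.37 for mt-Co1 (SE 0.51, adjusted p = 0.0387), with values of -2.24 for mt-Co2 (SE 0.73, adjusted p = 0.0211) and -2.21 for mt-Co3 (SE 0.75, adjusted p = 0.0266). Irx3 MI hearts exceeded MI hearts by 1.89 for mt-Co1 (SE 0.51, adjusted p = 0.0084), by 3.02 for mt-Co2 (SE 0.75, adjusted p = 0.005) and by 2.73 for mt-Co3 (SE 0.77, adjusted p = 0.01). None of the 3 was called between Irx3 MI and sham hearts, at 0.52 for mt-Co1 (adjusted p = 0.376), 0.77 for mt-Co2 (adjusted p = 0.349) and 0.52 for mt-Co3 (adjusted p = 0.544). Without Irx3 MI replicate 4, mt-Co2 was at 0.14 and mt-Co3 at -0.13 in that comparison.

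ATP synthase, complex V, takes mt-Atp6 and mt-Atp8 from overlapping reading frames of 1 mRNA. The counts assigned to mt-Atp6 gave 420, 78.7, 137 and 165 CPM in sham hearts, 9.88, 237, 21.01 and 2.89 in MI hearts, and 876, 1322, 1108 and 2605 in Irx3 MI hearts. Those assigned to mt-Atp8 gave 2.598, 0.377, 0.137 and 1.67 CPM in sham hearts, 0, 1.46, 0.171 and 0 in MI hearts, and 5.23, 9.77, 8.33 and 32.4 in Irx3 MI hearts. Irx3 MI hearts were above all others for both genes, and MI replicate 2 lay far above the other MI hearts. Irx3 MI hearts were higher than MI hearts by 4.45 for mt-Atp6 (SE 1.12, adjusted p = 0.00529) and 5.14 for mt-Atp8 (SE 1.04, adjusted p = 0.00143). They were higher than sham hearts by 2.88 for mt-Atp6 (SE 1.04, adjusted p = 0.0269) and 3.54 for mt-Atp8 (SE 0.93, adjusted p = 0.00489). The mt-Atp6 call against sham hearts was lost without Irx3 MI replicate 4 (2.46, adjusted p = 0.0804) and with the GC correction (1.69, adjusted p = 0.13). Neither gene was called in MI against sham hearts, with adjusted p = 0.209 for mt-Atp6 and 0.252 for mt-Atp8.

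**Figure D2:**
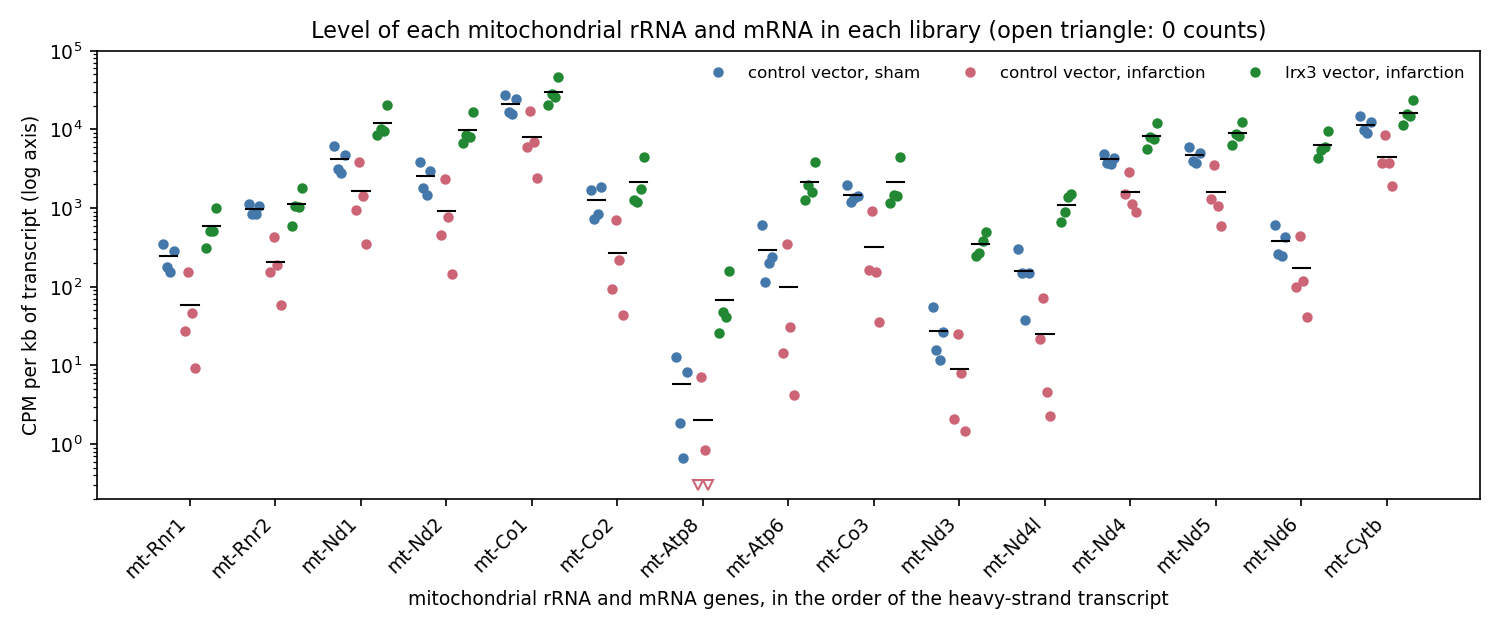
Each point is a library and each black line the mean of 4, as CPM per kb of transcript on a log axis, for the rRNAs and mRNAs in the order of the heavy-strand transcript, and an open triangle marks 0 counts. In Irx3 MI hearts mt-Nd6 has a mean of 6343 CPM per kb against 386 in sham hearts, and mt-Co1 is highest in all 3 groups.

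Among the 15 rRNA and mRNA genes, 9 were called lower and none higher in MI than in sham hearts, where 22.4% of all genes tested were called lower and 26.3% higher. At an unadjusted p under 0.05 the count of higher genes was 0 as well, and DESeq2 called 0 of the 14 with an adjusted p higher. The median of the 15 log2 fold changes was -1.57, against 0.01 over all genes. Ranges did not overlap for 7 of the 15 (both rRNAs, mt-Co2, mt-Co3, mt-Nd4, mt-Nd5 and mt-Cytb), against 22.8% of all genes lower without overlap. The number called moved with 2 libraries and with the filter. Without MI replicate 2 all 15 were called lower at a median of -2.91, and without sham replicate 1 or without a filter on low counts the calls were 4, those of mt-Rnr2, mt-Nd4, mt-Nd5 and mt-Cytb.

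Between Irx3 MI and MI hearts all 15 were called higher without overlap of the ranges, where 25.2% of all genes were called higher, 24.1% were called lower and 22.1% were higher without overlap. The median of the 15 was 3.02, against 0.00 over all genes. It stood between 2.51, without Irx3 MI replicate 4, and 4.18, without MI replicate 2, and the 15 calls held with any library left out. Between Irx3 MI and sham hearts 8 of the 15 were called higher and none lower, where 35.2% of all genes were called higher and 27.7% lower, and 9 were higher without overlap, where 33.2% of all genes were. The median of the 15 was 1.27, against 0.13 over all genes. Only mt-Atp8, mt-Nd3, mt-Nd4l and mt-Nd6 were called without sham replicate 2, without sham replicate 3 or without Irx3 MI replicate 4, so that each of these libraries brought the count from 8 to 4, and without sham replicate 4 it was 5. With no filter on low counts it was 4 as well, for mt-Atp8, mt-Nd3, mt-Nd4 and mt-Nd6.

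The light-strand mRNA mt-Nd6 was the mRNA with the smallest adjusted p in the Irx3 MI hearts. Its counts were 4543, 2139, 1863 and 3161 in sham hearts, 1006, 3759, 1092 and 421 in MI hearts, and 45284, 59028, 57648 and 65328 in Irx3 MI hearts. As CPM these were 319, 134, 127 and 220, then 51.8, 229, 62.2 and 21.8, then 2235, 2827, 3140 and 4965. All 4 Irx3 MI hearts were above the other 8, and the sham and MI ranges overlapped through MI replicate 2. The log2 fold change was 5.17 against MI hearts (SE 0.67, adjusted p = 8.99e-05) and 4.04 against sham hearts (SE 0.64, adjusted p = 0.000138). It was not called in MI against sham hearts, at -1.13 (SE 0.57, adjusted p = 0.117), but it was called without MI replicate 2, at -2.21 (adjusted p = 0.00139). The mt-Nd6 gene lies between mt-Nd5 and mt-Cytb of the heavy strand, so the heavy-strand precursor passes opposite it. The strand setting of the counting is not given in the sources used here. Reads of the mt-Nd6 mRNA and reads of heavy-strand RNA opposite it therefore cannot be told apart.

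Ordered by the mean CPM per kb of transcript, mt-Co1 and mt-Cytb led in all groups, and mt-Atp8 and mt-Nd3 were last. In sham hearts the means were 20940 ± 5645 (SD, n = 4) for mt-Co1, 11500 ± 2530 (SD, n = 4) for mt-Cytb, 4683 ± 1047 (SD, n = 4) for mt-Nd5, 4209 ± 1546 (SD, n = 4) for mt-Nd1 and 4150 ± 566 (SD, n = 4) for mt-Nd4. The last 3 did not differ beyond their spread. There mt-Nd6 was 10th of the 15 at 386 ± 173 (SD, n = 4), beside mt-Atp6 at 294 ± 221 (SD, n = 4). In MI hearts it was also 10th, at 176 ± 180 (SD, n = 4). In Irx3 MI hearts mt-Nd6 was 7th at 6343 ± 2268 (SD, n = 4), above mt-Co2 at 2171 ± 1545 (SD, n = 4) and within the spread of mt-Nd4 at 8291 ± 2687 (SD, n = 4).

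The tRNA rows held few counts outside the Irx3 MI hearts, and the 16 that were tested were all called higher in Irx3 MI than in MI hearts, a count that the filter on low values favours. Summed over the 14 heavy-strand tRNA genes, sham hearts had 47, 4, 1 and 35 counts, MI hearts 0, 71, 4 and 0, and Irx3 MI hearts 862, 1410, 1232 and 1183. Over the 8 light-strand tRNA genes the sums were 589, 131, 95 and 517 in sham hearts, 49, 476, 101 and 6 in MI hearts, and 3339, 5954, 5002 and 5324 in Irx3 MI hearts. Sham replicates 1 and 4 and MI replicate 2 were the high libraries among those with control vector, and the Irx3 MI hearts were above them all. A mature tRNA is shorter than a usual library fragment, so the RNA behind these counts, mature tRNA or longer precursor, cannot be told apart in counts per gene.

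The rows near 0 outside the Irx3 MI hearts include 4 whose sequences are printed above. Counts of mt-Te, the tRNA that lies between mt-Nd6 and mt-Cytb and follows mt-Nd6 in the annotated order, were 0 in all 4 sham hearts, 0, 0, 1 and 0 in MI hearts, and 762, 1472, 1479 and 1434 in Irx3 MI hearts. That was at least 1400-fold higher than in sham hearts, with 3 counts in the sham group taken as the floor. Counts of mt-Tl1, which lies between mt-Rnr2 and mt-Nd1, were 0, 2, 0 and 0 in sham hearts, 0 in all MI hearts, and 240, 371, 340 and 486 in Irx3 MI hearts, a ratio to sham hearts of 585 (95% counting interval 162 to 4840). The neighbour of mt-Nd1 on its other side, mt-Ti, had 0 counts in all 8 hearts with control vector and 38, 51, 57 and 56 in Irx3 MI hearts. It was at least 54.9-fold higher than in sham hearts and at least 67.4-fold higher than in MI hearts. For mt-Tg there was 1 count in the hearts with control vector, in MI replicate 2, and 56, 68, 70 and 53 in Irx3 MI hearts (ratio to MI hearts 247, 95% counting interval 44 to 9810). These intervals and floors cover counting error only.

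Others of this kind were mt-Tr, mt-Tq and mt-Ts2. Counts of mt-Tr, tRNA-Arg, were 2, 0, 0 and 0 in sham hearts, 0 in all MI hearts, and 24, 25, 35 and 35 in Irx3 MI hearts (at least 39.7-fold higher than in MI hearts). Counts of mt-Tq, tRNA-Gln, were 2, 0, 0 and 1 in sham hearts, 0, 2, 0 and 0 in MI hearts, and 40, 58, 41 and 82 in Irx3 MI hearts (ratio to MI hearts 111, 95% counting interval 30.3 to 919). Counts of mt-Ts2, a tRNA-Ser, were 4, 0, 0 and 0 in sham hearts, 0, 2, 0 and 0 in MI hearts, and 64, 103, 52 and 49 in Irx3 MI hearts (ratio to MI hearts 134, 95% counting interval 36.8 to 1110). No Irx3 MI heart overlapped a heart of another group for any of these 3.

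Of the light-strand tRNAs counted in all groups, mt-Tp had counts in all 12 libraries. They were 168, 89, 81 and 104 in sham hearts, 48, 105, 45 and 6 in MI hearts, and 957, 1485, 1298 and 1604 in Irx3 MI hearts. The log2 fold change was 4.74 against MI hearts (SE 0.57, adjusted p = 6.30e-05) and 3.37 against sham hearts (SE 0.53, adjusted p = 0.000138), and in MI against sham hearts it was -1.38 (SE 0.55, adjusted p = 0.0514). The cluster of mt-Ta, mt-Tn, mt-Tc and mt-Ty lies between mt-Tw and mt-Co1. Counts of mt-Tc were 138, 9, 3 and 124 in sham hearts, 0, 123, 18 and 0 in MI hearts, and 816, 1484, 1167 and 1158 in Irx3 MI hearts. Counts of mt-Ty were 142, 10, 6 and 167 in sham hearts, 0, 140, 21 and 0 in MI hearts, and 518, 1061, 703 and 727 in Irx3 MI hearts. Those of mt-Tn were 125, 23, 5 and 106 in sham hearts, 1, 98, 14 and 0 in MI hearts, and 229, 366, 297 and 293 in Irx3 MI hearts. Sham replicates 1 and 4 and MI replicate 2 were high for all 3 tRNAs, and no Irx3 MI heart was as low as any of these. Against sham hearts mt-Tc rose by 3.79 (SE 1.09, adjusted p = 0.00893) and mt-Ty by 2.91 (SE 1.11, adjusted p = 0.0351), while mt-Tn was not called at 1.91 (SE 0.97, adjusted p = 0.102). The fourth tRNA of the cluster, mt-Ta (tRNA-Ala), had 11, 0, 0 and 8 counts in sham hearts, 0, 5, 0 and 0 in MI hearts, and 11, 23, 13 and 19 in Irx3 MI hearts. It was not called against sham hearts (1.501, SE 0.91, adjusted p = 0.165).

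Heavy-strand tRNAs with a few counts in control vector hearts were mt-Tl2, mt-Tw, mt-Tm and mt-Th. A second tRNA-Leu, mt-Tl2, had 3, 0, 0 and 2 counts in sham hearts, 0, 18, 1 and 0 in MI hearts, and 234, 347, 327 and 230 in Irx3 MI hearts. The counts of mt-Tw, tRNA-Trp, were 15, 1, 1 and 21 in sham hearts, 0, 24, 1 and 0 in MI hearts, and 118, 291, 251 and 182 in Irx3 MI hearts. For mt-Tm, tRNA-Met, they were 16, 1, 0 and 7 in sham hearts, 0, 8, 2 and 0 in MI hearts, and 38, 68, 52 and 65 in Irx3 MI hearts. MI replicate 2 held most of the MI counts of these 3 tRNAs. The mt-Th gene, tRNA-His, had 6, 0, 0 and 5 counts in sham hearts, 0, 17, 0 and 0 in MI hearts, and 46, 81, 44 and 19 in Irx3 MI hearts. All 4 genes were called higher in Irx3 MI hearts against both other groups.

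No tRNA gene was called in MI against sham hearts by edgeR or by DESeq2, and mt-Tp alone of the 16 tested had an unadjusted p under 0.05 in edgeR (0.0252). Without MI replicate 2, 7 were called lower, mt-Ta, mt-Tc, mt-Th, mt-Tn, mt-Tp, mt-Tw and mt-Ty, with mt-Tn at -4.07 (adjusted p = 0.0107). The call of mt-Tn in Irx3 MI against MI hearts was lost without MI replicate 4 (2.92, adjusted p = 0.058). Against sham hearts 14 of the 16 tested were called higher in Irx3 MI hearts, a count that the filter on low values favours as well. It therefore cannot be read against the 35.2% of all genes given above. The 6 tRNA genes that were not tested added little: mt-Ts1 had 10 counts in sham, 5 in MI and 22 in Irx3 MI hearts, mt-Tv had 8 in Irx3 MI hearts and 0 elsewhere, and mt-Tk and mt-Tt had 7 and 6 in Irx3 MI hearts and at most 1 in either other group. The mt-Tf and mt-Td genes had 0 counts in all 12 libraries, although their neighbours mt-Rnr1 and mt-Co2 were among the counted transcripts.

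**Figure D3:**
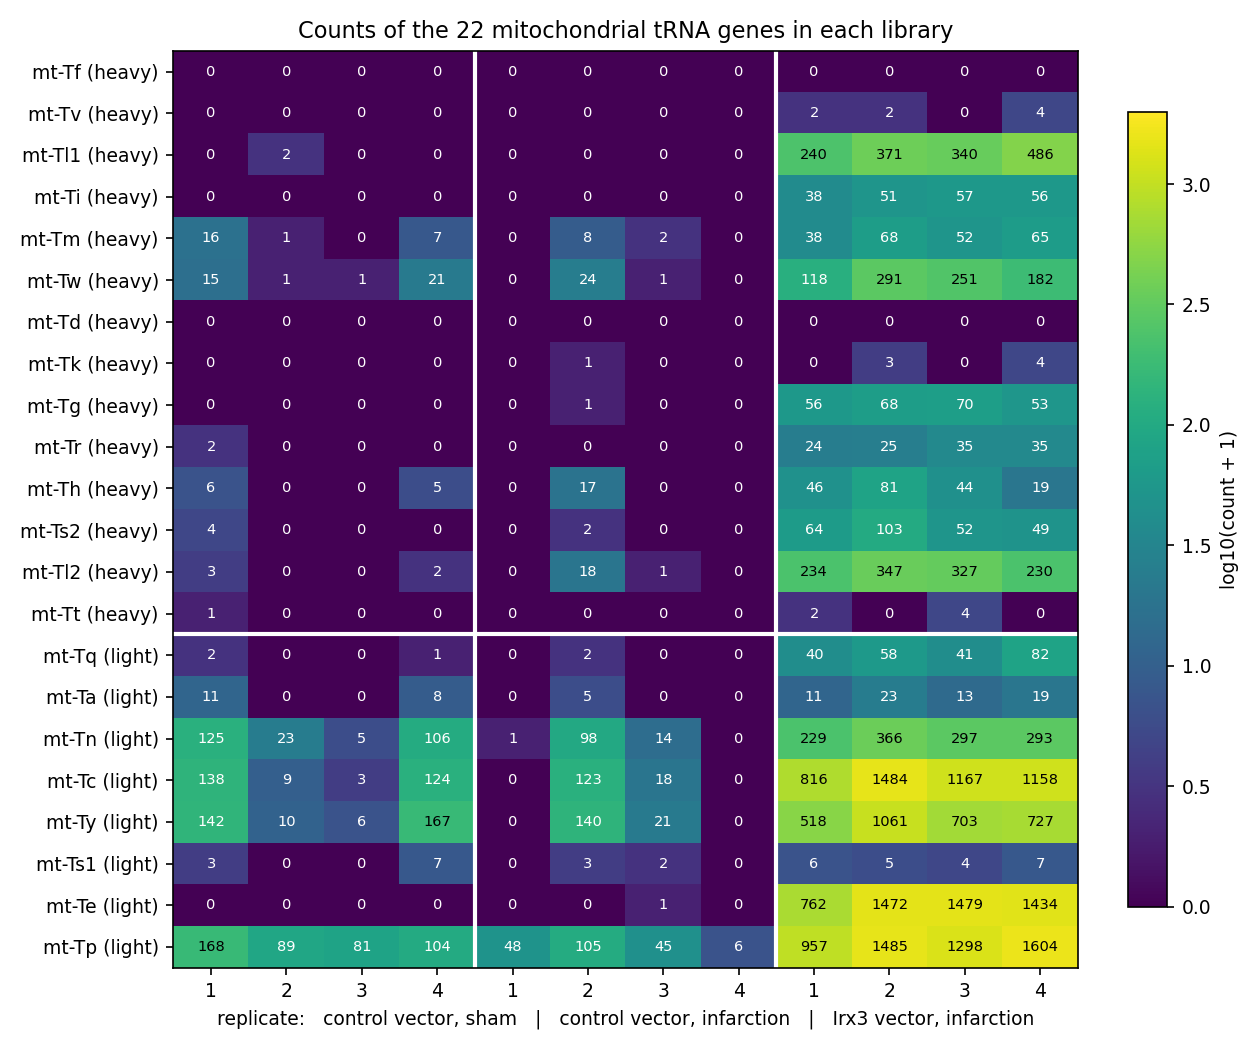
Each cell gives the counts of 1 tRNA gene (rows, heavy strand above and light strand below the white line) in 1 library (columns, 4 per group), coloured by log10(count + 1). Nearly all high counts lie in the 4 Irx3 MI libraries at the right, mt-Te goes from 0 or 1 to between 762 and 1479, and mt-Tf and mt-Td are at 0 throughout.

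A second fit asked whether the classes moved together with the heavy-strand mRNAs. It replaced the library size by the summed counts of the 12 heavy-strand mRNAs, so a value of 0 means a change equal to that of the sum. These 12 genes are themselves part of that sum. Its largest parts were mt-Co1, mt-Cytb and mt-Nd5, with 3215707, 1307528 and 1144808 counts in Irx3 MI hearts. Values near 0 for such genes are therefore partly fixed in advance. The median of the 12 was 0.92 between Irx3 MI and MI hearts, not 0. Between Irx3 MI and MI hearts 8 of the 15 rRNA and mRNA genes were called higher and none lower, where 0.311% of all genes were called higher and 92% lower. The light-strand mRNA mt-Nd6 rose by 3.16 beyond the heavy-strand sum (SE 0.47, adjusted p = 1.63e-05), and this stood between 3.07 and 3.35 with each library left out in turn. The short or medium heavy-strand mRNAs mt-Nd4l (3.68, SE 0.62), mt-Nd3 (3.39, SE 0.55), mt-Atp8 (3.21, SE 0.81) and mt-Atp6 (2.93, SE 0.65) also rose beyond the sum, as did mt-Nd2 (1.44, SE 0.44), mt-Rnr1 (1.32, SE 0.46) and mt-Co2 (1.01, SE 0.47). The mt-Co2 call was lost under most left-out libraries. The mt-Rnr2 rRNA followed the sum at 0.21 and was not called, like mt-Nd4 at -0.04, mt-Nd5 at 0.29, mt-Co1 at -0.29 and mt-Cytb at -0.43. Of the 16 tRNA genes tested, whose higher calls the filter on low values favours, 14 were called higher and mt-Ta and mt-Th were not.

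Relative to the same sum, Irx3 MI against sham hearts gave 6 higher calls among the 15, where 5.77% of all genes were called higher and 22.8% lower. They were mt-Nd6 at 3.29 (SE 0.47, adjusted p = 3.01e-05), mt-Nd3 at 3.02, mt-Atp8 at 2.73, mt-Atp6 at 2.13, mt-Nd4l at 2.11 and mt-Nd2 at 1.20, and the mt-Nd2 call was lost under 9 of the 12 left-out libraries. Neither rRNA was called, with mt-Rnr1 at 0.44 (adjusted p = 0.474) and mt-Rnr2 at -0.65 (adjusted p = 0.242). In MI against sham hearts mt-Nd6 moved with the sum (0.13, adjusted p = 0.771). There mt-Co2 fell beyond it by 1.09 (SE 0.48, adjusted p = 0.0367), mt-Co3 by 1.24 (SE 0.48, adjusted p = 0.0197) and mt-Nd4l by 1.56 (SE 0.58, adjusted p = 0.0158), where 0.578% of all genes were called lower and 81.4% higher. Of these 3 calls 1 was left without sham replicate 1 (mt-Co3), without MI replicate 1 (mt-Nd4l) or without MI replicate 3 (mt-Co2), and 8 of the 31 tested genes were lower without MI replicate 2. The rRNAs were not called at -0.88 for mt-Rnr1 (adjusted p = 0.0762) and -0.86 for mt-Rnr2 (adjusted p = 0.0602), but both were called lower without MI replicate 2. The tRNA gene mt-Tl2 was called higher at 2.61 (adjusted p = 0.0144), a call that rested on the 18 counts of MI replicate 2 and was lost without it.

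**Figure D4:**
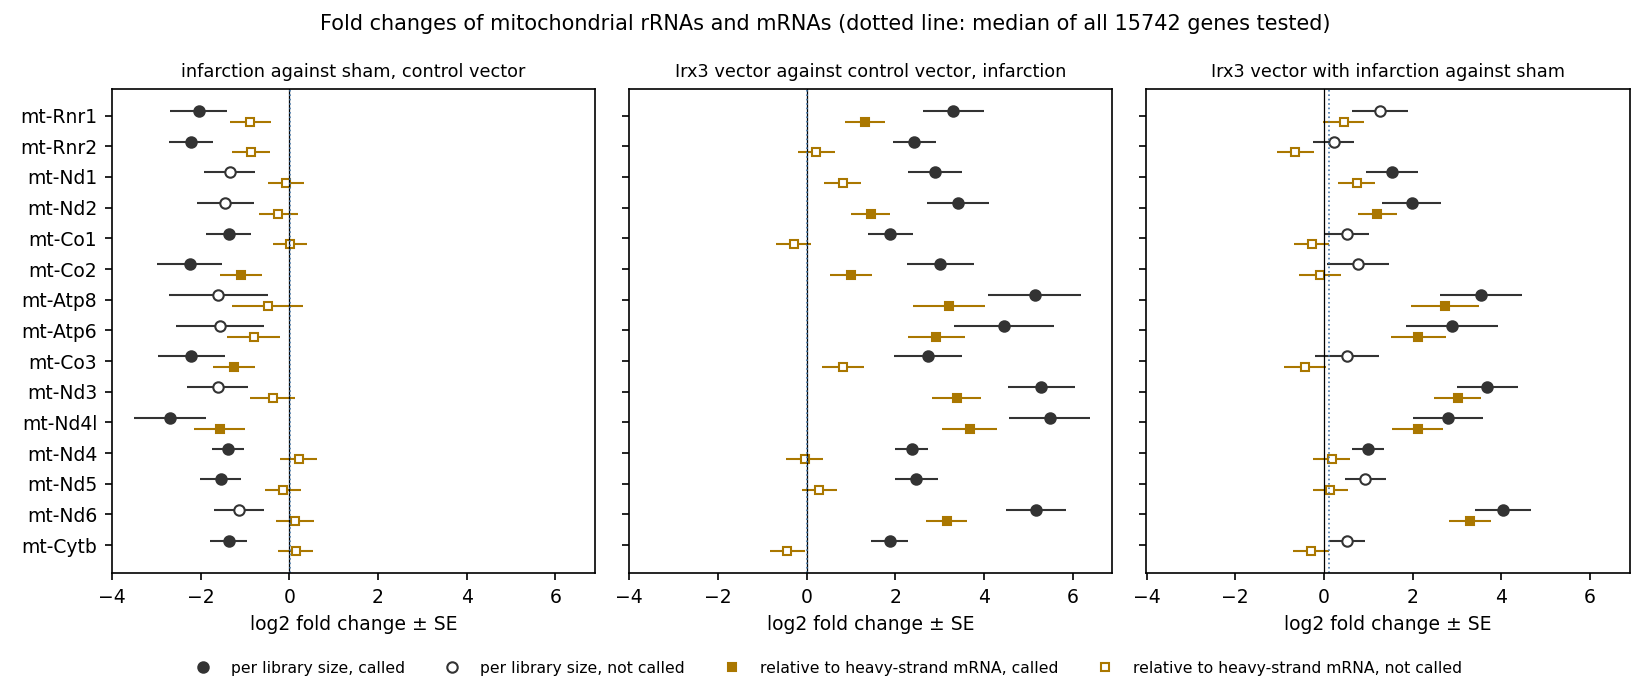
Log2 fold changes ± SE of the 15 rRNA and mRNA genes in the 3 comparisons, per library size (circles) and relative to the summed heavy-strand mRNAs (squares), with filled symbols for called genes and a dotted line at the median of all genes for the circles. In the middle and right panels mt-Nd6, mt-Nd3, mt-Nd4l, mt-Atp8 and mt-Atp6 stay to the right on both scales. Relative to the heavy-strand sum mt-Rnr2, mt-Co1, mt-Nd4 and mt-Cytb are not called there and lie between -0.65 and 0.21.

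The difference between Irx3 MI and other hearts was larger for mRNAs of shorter annotated genes. These lengths need not be those of RNA molecules. The overlapping genes mt-Nd4l and mt-Nd4, for instance, stood 5.49 and 2.38 higher in Irx3 MI than in MI hearts. Over the 13 mRNAs the Spearman correlation of length with the log2 fold change was -0.879 between Irx3 MI and MI hearts and -0.725 between Irx3 MI and sham hearts, against 0.12 and 0.118 over 15151 nuclear genes. From sham to MI hearts it was 0.478 for the 13 and 0.035 for the nuclear genes. With GC content in place of length, the correlation over the same 13 mRNAs was -0.714 between Irx3 MI and sham hearts, close to that of length, -0.39 between Irx3 MI and MI hearts, and -0.137 from sham to MI hearts. The mt-Nd6 mRNA of 519 bases lay among the 3 shorter mRNAs mt-Atp8, mt-Nd4l and mt-Nd3, and mt-Atp6, mt-Co2 and mt-Co3, of 681 to 784 bases, spread from 2.73 to 4.45 against MI hearts. These correlations are across genes of the same libraries, which also share overlapping transcripts and depth, so they are given as a description.

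**Figure D5:**
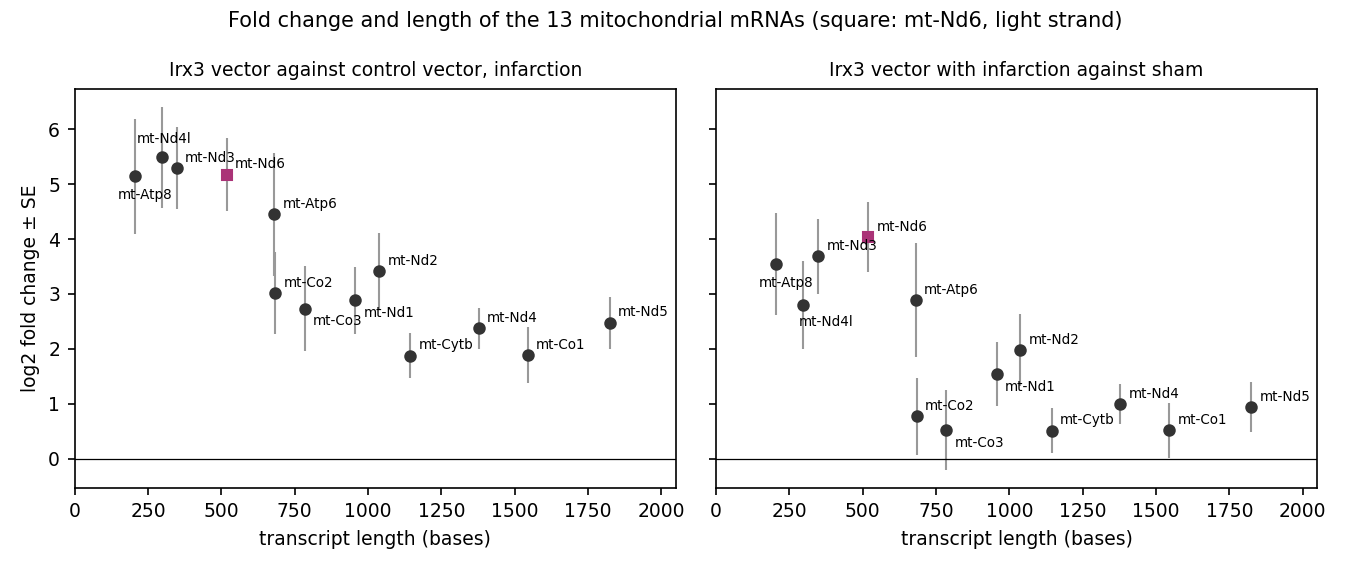
Log2 fold change ± SE of each mRNA against the annotated transcript length of its gene in bases, for Irx3 MI against MI hearts (left) and against sham hearts (right). The 5 highest points in each panel are mt-Nd4l, mt-Nd3, mt-Nd6 (square), mt-Atp8 and mt-Atp6, all of at most 681 bases, while mt-Co2 and mt-Co3 of similar length to mt-Atp6 lie lower.

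Log2 fold changes of nuclear genes also went with GC content in the comparisons that involve the Irx3 vector. Among nuclear genes the Spearman correlation of GC content with the log2 fold change was -0.65 between Irx3 MI and MI hearts and -0.436 between Irx3 MI and sham hearts, against 0.041 in MI against sham hearts. The 15 rRNA and mRNA genes have 31.86% to 41.08% GC, and of the 1327 nuclear genes in that range 77.5% were called higher in Irx3 MI than in MI hearts, at a median of 1.15, as were 77.5% against sham hearts, at a median of 1.15. Of those genes 18.6% in the comparison of MI with sham hearts were called higher and 15.1% lower. Each library was then corrected for its trend with GC content over genes above a minimum level. This left 12 of the 15 called higher in Irx3 MI than in MI hearts, at a median of 2.03, where 15% of all genes were then called higher and 13% lower. Among the 12 were mt-Nd6 at 3.76 (adjusted p = 0.000265) and mt-Nd4 at 0.97. The 3 that lost their call were mt-Co1 at 0.97, mt-Cytb at 0.85 and mt-Co3 at 1.79. Against sham hearts only mt-Nd6 (2.71), mt-Nd3 (2.32), mt-Atp8 (2.12) and mt-Nd4l (1.96) were then called higher, and mt-Rnr2 was called lower (-1.08, adjusted p = 0.026), where 30.8% of all genes were called higher and 22.8% lower. In MI against sham hearts 12 of the 15 were called lower after the correction, where 24.6% of all genes were.

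With both the heavy-strand sum and the GC correction, a combination added after the data were seen, mt-Nd6 remained called, at 1.32 against MI hearts (adjusted p = 0.0042) and 1.63 against sham hearts (adjusted p = 0.00651). Against MI hearts mt-Nd3, mt-Nd4l and mt-Atp6 were also called higher, whereas mt-Co1 (-1.32), mt-Cytb (-1.61), mt-Nd4 (-1.79), mt-Nd5 (-1.16) and mt-Rnr2 (-1.46) were called lower, where 0.203% of all genes were called higher and 94.7% lower. Against sham hearts mt-Nd6 was the only one of the 15 called higher and 7 were called lower, where 4.98% of all genes were called higher and 17.5% lower. The correction is fitted to the genes above the minimum level, so it removes change that follows their trend with GC content, of whatever source.

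Parts of mitochondrial DNA also lie in the nuclear genome as near-identical copies, between which short reads can be split. Of all windows of 50 bases, 100% of those in mt-Co2, 99.5% in mt-Atp6, 99.9% in mt-Co3, 98.0% in mt-Nd3 and 98.8% in mt-Nd4l occurred in a nuclear transcript, 62.2% of those in mt-Nd4 and 51.1% in mt-Co1, and 0 in mt-Nd1, mt-Nd6, mt-Cytb and mt-Rnr1. Levels of the genes with high shares are uncertain to that extent. The nuclear copies Gm10925 (of mt-Atp6), Gm28437 (mt-Co3), Gm28438 (mt-Nd3), Gm28439 (mt-Nd4), Gm28661 (mt-Co2) and Gm29216 (mt-Co1) matched their originals at 99.7% to 100% of bases. They summed to 1264, 676, 748 and 923 CPM in sham hearts, 225, 681, 228 and 81.0 in MI hearts, and 1233, 1734, 1583 and 3662 in Irx3 MI hearts. Of these 6 copies 6 were called higher in Irx3 MI than in MI hearts, 3 were higher in Irx3 MI than in sham hearts, and 4 were lower in MI than in sham hearts. The shares of all genes called in these directions were 25.2%, 35.2% and 22.4%. With the counts of 9 such copies added to the genes they match, a step also chosen after seeing the data, the 15 calls between Irx3 MI and MI hearts held, with mt-Atp6 at 4.21, mt-Nd4l at 5.26 and mt-Co2 at 2.91. The mt-Co2 call relative to the heavy-strand sum was lost (0.85, adjusted p = 0.0732).

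Most nuclear subunits of the same complexes fell in MI hearts, and few were called between Irx3 MI and MI hearts. From sham to MI hearts 32 of 37 nuclear complex I genes were called lower, where 22.4% of all genes were, with the core subunit Ndufv1 at -1.28. Of complex III 8 of 9 were lower, with Uqcrc1 at -1.37 and Cyc1, the cytochrome c1, at -1.17. Of complex IV 11 of 12 were lower, with the heart and muscle form Cox6a2 at -1.30 and Cox5a at -1.12, and of complex V 14 of 15, with the catalytic subunit Atp5a1 at -1.24. Between Irx3 MI and MI hearts 6 of the 37 complex I genes were higher (such as Ndufa5 at 1.35) and 4 lower (such as Ndufs7 at -1.26). Of all genes 25.2% were called higher and 24.1% lower there. The median of the complex I genes was -0.11 on the scale on which the 15 mitochondrial genes had 3.02. The medians were -0.21 for complex III, -0.15 for complex IV and -0.08 for complex V, with 3, 1 and 2 genes called. These counts moved with the infarcted libraries: without Irx3 MI replicate 4, complex I had 3 higher and 12 lower genes and complex V 0 higher and 5 lower, and without MI replicate 4 complex I had 3 higher and 11 lower. Leaving out MI replicate 1 or 3 gave 3 higher and 2 or 3 lower genes of complex I. Over all genes 7760 were called with all libraries, 7355 without Irx3 MI replicate 4, and 6765, 7200 and 7219 without MI replicates 1, 3 and 4. For complex I the GC correction gave 1 higher and 1 lower gene, where 15% of all genes were called higher and 13% lower. Against sham hearts 26 of 37, 6 of 9, 9 of 12 and 11 of 15 were called lower, where 27.7% of all genes were, with medians from -1.08 to -1.27. The nuclear complex I genes together stood at 11510 to 13960 CPM in sham hearts, 3476 to 6975 in MI hearts and 3537 to 7761 in Irx3 MI hearts, where the last 2 groups overlapped.

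The nuclear genes that copy, read and process mitochondrial DNA and RNA moved in more mixed ways. In MI against sham hearts 12 of 19 tested genes of transcription and replication were lower and 2 higher. Of all genes 22.4% were called lower and 26.3% higher there. Twnk, the replicative helicase, was at -1.35. Tfam, which packs mitochondrial DNA and starts its transcription, was at -0.81. Polrmt, the mitochondrial RNA polymerase, was at -0.77. Between Irx3 MI and MI hearts 10 of these 19 were higher and 2 lower, where 25.2% of all genes were called higher and 24.1% lower. Rrm2b, a ribonucleotide reductase subunit, was at 1.76 and Tfam at 1.13, while the DNA polymerase Polg was at -0.76 and Polrmt at -0.81. With the GC correction 4 stayed higher and 1 lower, where 15% of all genes were called higher and 13% lower. Tfam was then at 0.70 (adjusted p = 0.0109), Polg at -0.43 (adjusted p = 0.00268) and Polrmt at -0.15 (adjusted p = 0.444). Of 19 genes that process, stabilise or degrade mitochondrial RNA, 11 were lower in MI than in sham hearts, such as Fastk at -1.29 and the tRNA 3' end nuclease Elac2 at -0.64. Of these 19, 10 were higher in Irx3 MI than in MI hearts, and 6 were without MI replicate 1 or without Irx3 MI replicate 4. Among the 10 were the poly(A) polymerase Mtpap at 1.41 and Trmt10c, part of the nuclease that cuts tRNA 5' ends, at 1.30. With the GC correction 4 were higher and 1 lower, with Mtpap at 0.87 (adjusted p = 0.00328) and Trmt10c at 0.56 (adjusted p = 0.0782). Of 9 regulators of mitochondrial biogenesis 5 were lower and 1 higher in MI hearts, and 2 were higher and 2 lower in Irx3 MI than in MI hearts. The shares of all genes given in this paragraph apply to the processing genes and the regulators as well. The named genes other than Tfam and Polrmt are those with the smallest p in their list, and Tfam and Polrmt were named after their values were seen.

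Other measures moved with the groups, and their part in the mitochondrial results was not tested. Summed over 12 cardiomyocyte markers (Myh6, Tnnt2 and others), levels were 126500 to 143200 CPM in sham hearts, 63400, 81440, 60060 and 30710 in MI hearts, and 40950, 64970, 42270 and 73460 in Irx3 MI hearts. Within the MI group the library with the highest mitochondrial share, replicate 2, had the highest cardiomyocyte sum and that with the lowest share, replicate 4, had the lowest. The Irx3 MI group had the same order, with replicate 4 highest and replicate 1 lowest in both. The sham group had the opposite order: replicate 1 with the highest share (8.22%) had the lowest sum (126500), and replicate 3 with the lowest share (4.50%) had the highest (143200). Of the 12 markers 10 were called lower in MI than in sham hearts, where 22.4% of all genes were. Between Irx3 MI and MI hearts 1 was higher and 2 lower, where 25.2% of all genes were called higher and 24.1% lower. The cardiomyocyte sums of both infarcted groups overlapped. Summed over 8 fibroblast markers, levels were 634 to 816 CPM in sham hearts, 13040 to 36190 in MI hearts and 3765 to 25210 in Irx3 MI hearts. The brown fat gene Ucp1 was at 0 in all sham hearts. Summed with Cidea and Elovl3, brown fat genes stood at 37.6 to 55.0 CPM in sham, 25.1 to 37.7 in MI and 16.2 to 29.8 in Irx3 MI hearts. Adipoq and Lep of white fat were at 0 in sham hearts. Summed with Plin1, white fat genes reached at most 0.209 CPM in sham, 4.29 in MI and 3.01 in Irx3 MI hearts. The skeletal muscle heavy chain genes Myh1 and Myh4 were at 0 in all sham hearts. Summed with Myh2, these skeletal muscle genes reached 0.188 CPM at most in sham hearts, but 0.0517 to 254 CPM in MI hearts and 0.444 to 3.11 CPM in Irx3 MI hearts. Of the 3 only Myh2 could be tested, and it was called higher in MI than in sham hearts (7.77, SE 2.32, adjusted p = 0.0144). Of the small nuclear-encoded RNA classes 2 stood higher in all Irx3 MI hearts. Small nuclear RNAs summed to 4.21 to 6.67 CPM in sham hearts, 2.38 to 5.67 in MI hearts and 10.3 to 15.5 in Irx3 MI hearts, and small nucleolar RNAs to 10.4 to 14.0, 10.8 to 14.0 and 16.6 to 19.7. Small Cajal body RNAs of Irx3 MI hearts overlapped both other groups, at 2.04 to 3.01 CPM in sham, 1.08 to 1.60 in MI and 1.06 to 2.63 in Irx3 MI hearts. Rows of nuclear-encoded rRNA went the other way on average, at 384 to 482 CPM in sham, 503 to 587 in MI and 177 to 530 in Irx3 MI hearts, which overlapped both other groups. Genes with at least 1 count numbered 20345 to 20931 in sham, 20743 to 22408 in MI and 21279 to 24029 in Irx3 MI hearts.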

How the data were processed

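Polyadenylated RNA of 12 left ventricles was sequenced on an Illumina platform after oligo(dT) capture and random fragmentation, per the labels' protocols. The authors deposited 1 table of whole-number counts per gene without normalisation. Per the submitters' processing notes, fastp and the build GRCm39 (mm39) were used. Which aligner, counter, annotation release and strandedness they chose is not given here in any source. All libraries have columns of their own, and totals ranged from 13352604 to 19236721.

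Counts were fitted for all 56748 rows in edgeR 4.0.16 (R 4.3.3, limma 3.58.1) with TMM factors, filterByExpr by group (15742 genes left), robust quasi-likelihood fitting with 1 term per group and 9 residual degrees of freedom, and Benjamini-Hochberg adjustment over all genes tested (0.05). A second fit used the summed counts of the 12 heavy-strand mRNAs as library size. A standard error is the size of the log2 fold change divided by the root of its F statistic. Ratios to 0 counts take 3 counts per group as a floor, and those against 1 to 3 counts a 95% interval. Alternatives were RLE factors, scaling without mitochondrial rows, no filter, a CPM of 1 in 4 libraries, DESeq2 1.42.0, only the 2 groups compared, a replicate block, a per-library GC offset, and each library left out. The GC offset was a spline with 6 degrees of freedom over genes with a sequence and a mean log2 CPM of at least 2. It was fitted in 3 rounds, without genes beyond 2.5 median absolute deviations. Of the genes tested 15182 had a sequence. Nuclear copies added to members, the GC offset in the second fit and list counts under each setting were added after the data were seen. GC content, lengths and sequences came from GENCODE M21 transcripts (GRCm38), read with Biopython 1.88. The fit was tested on simulated data.

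Named were the rRNA, mRNA and tRNA members and, of each nuclear list, the 2 genes with the smallest p per comparison, of which a part is printed. The members and lists were chosen with earlier results of these data known. Libraries within a group differed beyond sampling noise, so none was a duplicate.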

Additional observations from a re-analysis of the deposited data

Results flagged for a closer look

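In all, 99 sets of 4 values were checked. Most were the CPM of a gene in a group, and the others were the share of counts or a class ratio in a group. In 22 sets, all of them CPM of a gene, the gap of a library to the next was most of the range. Chance gives about 1 in 20 only for separate sets of normally spread values. These genes share libraries, and where all but 1 library had no counts the gap was the whole range by necessity. The number of sets is therefore not read against 1 in 20. Of the 22, 13 were replicate 2 of the MI group as its highest library. There mt-Atp6 was at 236.7 CPM against 21.01 in the next library, mt-Atp8 at 1.464 against 0.1708, and mt-Co3 at 723.6 against 126.3. Among the tRNA genes of that library mt-Ty was at 8.538, mt-Tc at 7.501, mt-Tn at 5.977, mt-Tw at 1.464, mt-Tl2 at 1.098, mt-Th at 1.037 and mt-Ta at 0.3049, and 1 or 2 counts set mt-Tq at 0.122, mt-Ts2 at 0.122 and mt-Tg at 0.06099.

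Replicate 4 of the Irx3 MI group was the highest for mt-Nd1 (19660 CPM, next 9795), mt-Co2 (3053, next 1182), mt-Co3 (3469, next 1156) and mt-Atp8 (32.38, next 9.769), and replicate 1 was the lowest for mt-Tw (5.825, next 13.67). Single counts or a few set apart mt-Te at 0.05694 in MI replicate 3, mt-Tl1 at 0.1256 in sham replicate 2, and mt-Tr at 0.1404 and mt-Ts2 at 0.2808 in sham replicate 1.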

How the results depend on the processing

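The counts of calls here include the tRNA genes, whose higher calls in Irx3 MI hearts the filter on low values favours. Of the 31 tested genes, those called numbered 9 (all lower) in MI against sham, 31 in Irx3 MI against MI and 22 in Irx3 MI against sham hearts, and 3 (lower, beside 1 higher), 22 and 18 relative to the heavy-strand sum. With each library left out these ran from 4 to 22, 30 to 31 and 17 to 25, and relative to the sum from 1 to 8 lower, 19 to 26 and 15 to 19. Without a filter MI against sham hearts gave 4, and mt-Co3 lost its call in Irx3 MI against MI hearts (2.71, adjusted p = 0.0627). The replicate numbers do not pair the libraries (correlations of same-numbered libraries from -0.421 to 0.097), and a replicate block gave 8, 31 and 18 calls, or 1, 22 and 19 relative to the sum. With the block and the GC offset Irx3 MI against sham hearts gave 14. Group mean shares of counts ran from 5.46% to 6.70% in sham, 1.75% to 3.32% in MI and 11.92% to 14.78% in Irx3 MI hearts with a library left out.

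In Irx3 MI against sham hearts the GC offset turned the sign of mt-Rnr2 (-1.08), mt-Co1 (-0.44), mt-Co2 (-0.30), mt-Co3 (-0.54), mt-Nd4 (-0.28), mt-Nd5 (-0.24) and mt-Cytb (-0.52). With the replicate block as well they stood at -1.12, -0.46, -0.40, -0.63, -0.31, -0.25 and -0.54, and mt-Rnr1 at -0.05. With a library left out mt-Rnr2 ran from -0.11 to 0.37 and mt-Co3 from -0.13 to 0.68, the lowest without Irx3 MI replicate 4. The cause was not tested. DESeq2 gave no adjusted p for mt-Co3, so it entered no count there. Depth limits the tRNA rows, most of which had under 20 counts in the libraries with control vector.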
